A study of Rattus norvegicus with 8 samples.

Results

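8 receptor genes through which vagal sensory neurons can respond to acetylcholine are described here: the nicotinic receptor subunits Chrna3, Chrna5, Chrna6, Chrna7, Chrnb2 and Chrnb4, and the muscarinic receptors Chrm2 and Chrm3. They were taken by symbol from the gene list of the count matrix, where all 8 were found among 30560 genes. The nuclei came from nodose ganglia of experimentally naïve Long Evans rats, 8 weeks old, 18 labelled male and 18 labelled female, with no other treatment. Ganglia of 1 side from 6 rats of 1 sex were combined into a pool, which gave 3 pools for each sex and side and 12 pools in all (single-nucleus RNA sequencing with split-pool barcodes, in 8 sublibraries that each hold nuclei of the pools). The 12 pools are the replicates. Left and right pools of a sex drew on the same rats, so they are not independent samples.

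Nicotinic receptors are cation channels made of 5 subunits around a pore, opened by acetylcholine or nicotine. Chrna3 with Chrnb4 forms the channel that carries fast transmission in autonomic ganglia, Chrna5 joins it as an accessory subunit, Chrna6 and Chrnb2 are best known from nicotine-sensitive neurons of the brain, and Chrna7 can form a channel by itself. Chrm2 couples to inhibitory G proteins and Chrm3 to those that activate phospholipase C. The nodose ganglion holds the cell bodies of vagal sensory neurons from thoracic and abdominal organs. It is fused with the jugular ganglion, whose somatosensory-type neurons carry the transcription factor Prdm12.

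The members divided into a group of subunits highest in 1 large neuron subcluster, and others each highest elsewhere. Chrna3, Chrna5 and Chrnb4 were all highest in subcluster n5, whose leading genes were Xylt1, ENSRNOG00000006324 and the secretin receptor Sctr. These 3 genes stand next to each other on chromosome 8 in RefSeq (build GRCr8), in the order Chrna5, Chrna3, Chrnb4, and their gene models overlapped no other protein-coding gene. The 250 bases upstream of each RefSeq start site are shown because these 3 neighbouring members share their highest subcluster. They run 5′ to 3′ on the strand of the gene, and capitals mark the GC box GGGCGG and its reverse complement. The windows are chr8:64311252-64311501 (minus strand) for Chrna3, chr8:64265629-64265878 (plus strand) for Chrna5 and chr8:64333110-64333359 (minus strand) for Chrnb4.
Chrna5: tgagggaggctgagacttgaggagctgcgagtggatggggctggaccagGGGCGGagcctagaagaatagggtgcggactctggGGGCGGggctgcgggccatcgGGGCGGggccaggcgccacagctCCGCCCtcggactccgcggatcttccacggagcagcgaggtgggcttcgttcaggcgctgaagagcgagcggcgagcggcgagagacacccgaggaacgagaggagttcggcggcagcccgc
Chrna3: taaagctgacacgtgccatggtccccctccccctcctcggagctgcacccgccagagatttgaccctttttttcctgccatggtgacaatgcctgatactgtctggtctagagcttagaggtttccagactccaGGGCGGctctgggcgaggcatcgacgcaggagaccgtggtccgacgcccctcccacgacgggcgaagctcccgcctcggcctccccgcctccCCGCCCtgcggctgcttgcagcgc
Chrnb4: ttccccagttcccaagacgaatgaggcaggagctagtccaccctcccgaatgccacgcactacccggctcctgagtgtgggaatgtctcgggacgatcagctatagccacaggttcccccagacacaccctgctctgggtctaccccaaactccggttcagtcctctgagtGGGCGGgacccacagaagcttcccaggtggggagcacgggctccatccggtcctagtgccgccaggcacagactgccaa
The motif, searched on both strands, matched 4 times in the Chrna5 window, 2 times in the Chrna3 window and 1 time in the Chrnb4 window. Of 33469 windows of this length in the table, 30.5% held it. 7 of the 8 members matched the table by symbol, and each of those 7 windows held at least 1 match. The bases G and C made up 59.6% (Chrnb2) to 70.4% (Chrna5) of those 7 windows, against a median of 51.2% over all windows. Whether the members hold more matches than other windows of like composition was not tested. A match describes the letters of a window and is no measure of binding.

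The matrix held 36741 nuclei and 139965360 unique molecular identifiers (UMIs, each counted as 1 captured RNA molecule), with 7139364 to 19456287 UMIs per pool. Clustering, done without any cholinergic receptor gene, gave 24611 neuron-like nuclei (67.0%, median 2951 UMIs) in 23 subclusters, which are named by number and leading genes. Snap25, a neuronal synapse gene, was also found in satellite glia-like nuclei, at 1211 CPM (UMIs of the gene, scaled to the same total of UMIs in every class or pool) against 1672 CPM in neurons. Leaving out the sublibrary index, 1865 well barcode combinations occurred in more than 1 sublibrary; the index keeps such nuclei apart. In 2 pools the data went against the sex label: Y-linked genes had 2.88 CPM in male-labelled left pool 1, far under the 84.4 to 91.3 CPM of the remaining pools with that label. In female-labelled left pool 1 they had 88.7 CPM, where the remaining pools with that label had 2.73 to 3.95 CPM. Results by sex are therefore given by label. The test by labelled sex in neurons is given with and without these pools, other results by sex with them only.

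Between 69.1% (Chrnb2) and 80.9% (Chrna6) of a member's UMIs lay in neuron-like nuclei. Another 4.93% (Chrm3) to 16.9% (Chrnb2) lay in 4 clusters of 3642 nuclei (9.91% of all) that carried neuron markers, with Snap25 at 1513 to 2109 CPM. Because genes of satellite glia (n3, n11, n17) or skeletal muscle (n26) led them, these clusters were left unnamed and stand outside the 23 neuron subclusters. Their mean doublet scores, 0.0885 to 0.1445, lay toward or above the upper end of those of the neuron subclusters (0.0457 to 0.101, median 0.0672). The remaining 9.04% (Chrna6) to 18.2% (Chrm3) lay in the named non-neuronal and sympathetic-type classes. The totals over all nuclei were 10632 UMIs for Chrna3, 9597 for Chrm2, 7303 for Chrna7, 4947 for Chrm3, 4434 for Chrnb4, 3924 for Chrnb2, 2624 for Chrna5 and 1648 for Chrna6. Counts were not divided by transcript length, so these totals do not rank the genes by abundance. In the neurons of a pool, Chrna3 stood at 82.5 ± 17.9 CPM (mean ± SD, n = 12 pools), Chrm2 at 79.8 ± 12.2 CPM and Chrna7 at 60.2 ± 6.90 CPM. Chrm3 stood at 40.4 ± 19.6 CPM, Chrnb4 at 36.7 ± 4.34 CPM, Chrnb2 at 28.4 ± 6.39 CPM, Chrna5 at 21.0 ± 3.20 CPM and Chrna6 at 14.0 ± 4.39 CPM. Chrm3 varied most between pools, with a coefficient of variation of 48.5%, and Chrna7 least, at 11.5%. For each subcluster, CPM are taken over the UMIs of its nuclei, and pools with fewer than 20 nuclei of it gave no value.

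7 of the 8 members were at least 5 times higher in their highest subcluster than in the median subcluster. The exception was Chrnb2, at 3.94 times. Chrna3 had the steepest profile, 35.5 times the median, followed by Chrm3 at 32.7 times and Chrna6 at 25.6 times. The subclusters come from the same nuclei, so these levels are a description with no test.

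**Figure D1:**
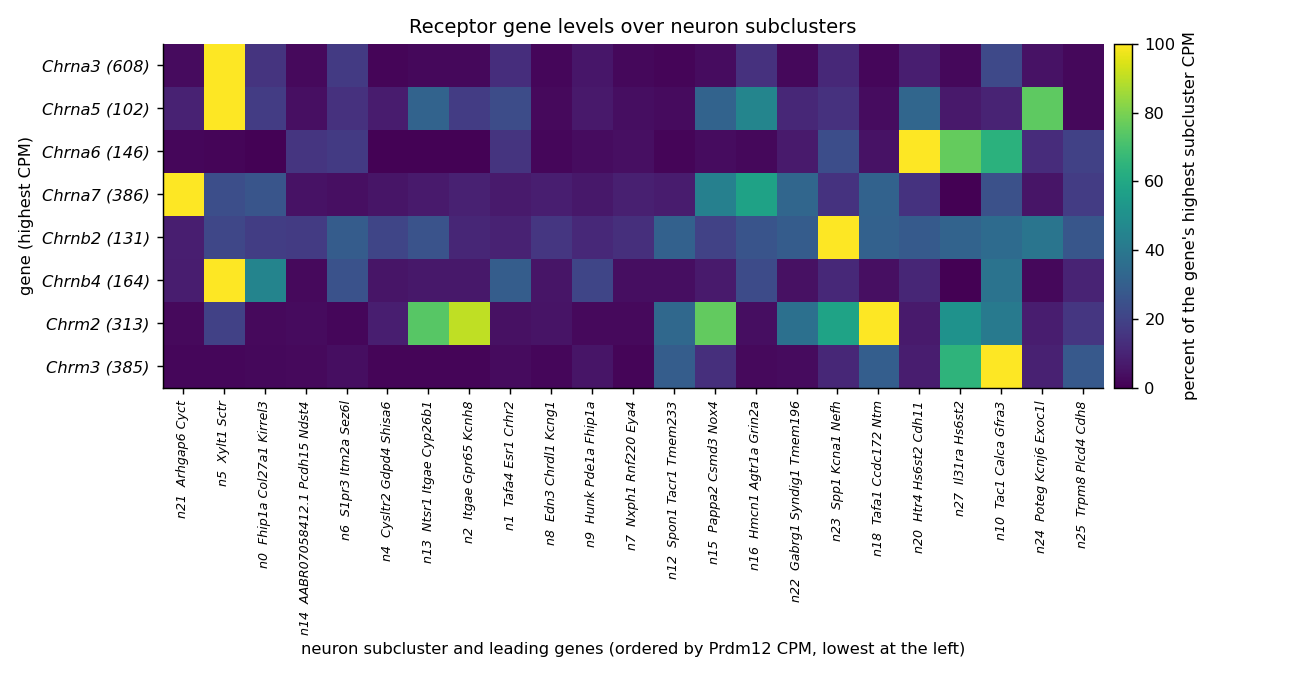
Level of each receptor gene (rows, highest CPM in brackets) in the 23 neuron subclusters (columns, with leading genes), as a percent of that gene's highest subcluster, all pools together. Chrna3, Chrna5 and Chrnb4 share their highest subcluster, n5, while Chrm3 is highest in n10. Columns are ordered by the CPM of Prdm12, which is lowest at the left.

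Chrna3, the ligand-binding subunit of the ganglionic receptor, was concentrated in n5. This subcluster held 1600 nuclei, 6.50% of neurons, and 45.3% of all Chrna3 UMIs of neurons. Its lowest pool had 511 CPM, the median 633 CPM and the highest 847 CPM (mean 628 ± 96.1, n = 12). The next levels among the 23 subclusters were 125 ± 33.2 CPM in n10 (Tac1, Calca, Gfra3; n = 11 pools) and 95.2 ± 34.3 CPM in n6 (S1pr3, Itm2a, Sez6l; n = 12), which differed by less than their SDs. The unnamed cluster n3 stood at a like level, 129 ± 41.6 CPM (n = 12). The gap from n5 to n10 was 5.23 times the larger SD, and the lowest pool of n5 was above the highest of n10, at 170 CPM. The lowest level was in n4 (Cysltr2, Gdpd4, Shisa6), 6.54 ± 3.54 CPM. Thinned to 1000 UMIs per nucleus, which left out 920 shallower neurons, 36.1% of n5 nuclei had a Chrna3 UMI (64.1% unthinned) against 6.02% of all neurons.

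Chrnb4, the partner of Chrna3 in that receptor, followed a wider pattern. In n5 its lowest pool had 144 CPM, the median 163 CPM and the highest 228 CPM (mean 169 ± 26.1, n = 12), and n5 held 27.5% of its neuronal UMIs. It was next highest in n0 (Fhip1a, Col27a1, Kirrel3), at 73.5 ± 8.36 CPM (n = 12), and n10, at 61.4 ± 22.2 CPM (n = 11). In n27 (Il31ra, ENSRNOG00000062489, Hs6st2), a subcluster of 57 nuclei, no Chrnb4 UMI was found, which allows up to 25.7 CPM (upper bound of the exact 95% Poisson interval, counting error only).

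Chrna5, the accessory subunit, was nearly as high in n24 as in n5. Its pools of n5 ranged from 88.5 to 117 CPM with a median of 100.1 CPM (mean 101 ± 8.36, n = 12). In n24 (Poteg, Kcnj6, Exoc1l), where 4 pools had enough nuclei, it stood at 84.8, 79.6, 82.5 and 106 CPM. These ranges overlapped, and n16 (Hmcn1, Agtr1a, Grin2a) came next at 48.1 ± 12.5 CPM (n = 12). In n24 Chrnb4 had 2 UMIs in all (3.39 CPM), so the highest subclusters of these neighbouring genes were shared only in part. The lowest Chrna5 level, 1 UMI in 181 nuclei, was in n25 (Trpm8, Plcd4, Cdh8).

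Chrna6 had its highest levels in Prdm12-positive subclusters. It was highest in n20 (Htr4, Hs6st2, Cdh11), where the 5 pools with enough nuclei had 107, 90.04, 83.4, 208 and 206 CPM (mean 139 ± 62.7). In n27 it stood at 111 CPM (16 UMIs, 95% Poisson interval 63.7 to 181, pools together), and in n10 at 95.2 ± 30.2 CPM (n = 11), overlapping n20. Because n10 is larger, it held 37.0% of the neuronal Chrna6 UMIs against 10.1% in n20. Prdm12 stood at 101 CPM in n20, 105 CPM in n27 and 116 CPM in n10. The lowest Chrna6 level was in n4, at 0.58 ± 0.78 CPM (n = 12).

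Chrnb3, the subunit gene next to Chrna6 on chromosome 16 and no member of the set, was high in the same places, at 115 ± 24.5 CPM in n20 (n = 5), 125 CPM in n27 and 76.7 ± 31.1 CPM in n10 (n = 11). Over the 23 subclusters the log2 levels of Chrna6 and Chrnb3 had a Pearson r of 0.76, as a description.

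Chrnb2, a structural subunit of heteromeric channels, had the lowest ratio of highest to median subcluster. It reached at least 20 CPM in 18 of 23 subclusters, fewer than the 20 of Chrna7. It was highest in n23 (Spp1, Kcna1, Nefh), led by genes that include the neurofilament gene Nefh, at 175, 95.9, 101, 179, 149.9, 54.8 and 195 CPM in the 7 pools with enough nuclei (mean 136 ± 52.4). The next subclusters were n24, at 59.3 ± 37.1 CPM (n = 4), and n10, at 48.0 ± 11.99 CPM (n = 11). These last levels were within 1 SD of each other. The lowest was n21 (ENSRNOG00000009522, Arhgap6, Cyct), at 12.6 ± 12.1 CPM (n = 9).

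Chrna7, the subunit of homomeric channels, was highest in that same n21, where its 9 pools ranged from 269 to 563 CPM with a median of 420 CPM (mean 399 ± 94.9). The next were n16, at 226 ± 78.2 CPM, and n15 (Pappa2, Csmd3, Nox4), at 168 ± 52.8 CPM (both n = 12), which overlapped. Small n21 held 5.60% of the neuronal Chrna7 UMIs, and 20 of 23 subclusters reached at least 20 CPM, so most Chrna7 UMIs lay outside its highest type. After thinning, 29.6% of n21 nuclei had a Chrna7 UMI against 5.75% of all neurons. None of the 57 nuclei of n27 had a Chrna7 UMI, which allows up to 25.7 CPM.

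Chrm2 had no single highest type. Over all pools together n18 (Tafa1, Ccdc172, Ntm) was highest at 313 CPM, but its 7 pools ranged from 124 to 462 CPM (mean 266 ± 113). In n2 (Itgae, Gpr65, Kcnh8) the 12 pools ranged from 138 to 402 CPM with a median of 276 CPM (mean 277 ± 74.3). The levels in n15, 230 ± 67.5 CPM, and in n13 (Ntsr1, Itgae, Cyp26b1), 235 ± 64.3 CPM, also overlapped (both n = 12). Of these 4 subclusters n2 and n13 share the leading gene Itgae, and they held 25.8% and 21.9% of the neuronal Chrm2 UMIs. The lowest level was in n6, at 5.18 ± 2.25 CPM (n = 12).

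Chrm3 was concentrated in n10, the peptidergic subcluster led by Tac1 (substance P precursor) and Calca (calcitonin gene-related peptide). Its pools ranged from 156 to 587 CPM there, with a median of 361 CPM (mean 368 ± 115, n = 11), and n10 held 53.7% of the neuronal Chrm3 UMIs in 5.16% of the neurons. The next were n27, at 251 CPM (36 UMIs, 95% Poisson interval 176 to 347), and n18, at 121 ± 48.1 CPM (n = 7). Subcluster n12 (Spon1, Tacr1, Tmem233) was close to n18, at 119 ± 55.8 CPM (n = 12). The lowest level was in n13, at 4.64 ± 3.99 CPM (n = 12), one of the subclusters high in Chrm2.

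The share of n10 among neurons ran from 1.28% to 13.3% between pools. The lowest share and the lowest Chrm3 level of neurons, 15.9 CPM, were in female-labelled right pool 2. The highest share was in male-labelled left pool 1, which also had the highest Chrm3 (77.6 CPM), Chrna6 (22.5 CPM) and Prdm12 (31.1 CPM, against 11.9 ± 8.71 over the 12 pools). With n10 left out, Chrm3 in the other neurons stood at 19.9 ± 6.83 CPM, a coefficient of variation of 34.3%. Chrna6 then stood at 9.37 ± 1.67 CPM, with a coefficient of variation of 17.9% against 31.3% over all neurons. The part of the n10 share in the spread of Chrm3 was not tested.

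In the 3 non-neuronal classes whose smallest pool held 20 nuclei or more, Chrna3 UMIs stood in nearly the same proportion to Snap25 UMIs as in neurons. In satellite glia-like nuclei Chrna3 stood at 56.95 ± 19.5 CPM, Chrm2 at 51.2 ± 18.9 CPM and Chrna7 at 41.1 ± 13.9 CPM (n = 12). As a share of the Snap25 UMIs of the same nuclei, Chrna3 was 4.96 ± 0.982% in neurons, 4.71 ± 1.31% in satellite glia-like nuclei, 5.37 ± 2.87% in myelinating Schwann-like nuclei and 4.52 ± 2.81% in mural-like nuclei. These shares differed by less than their SDs. With all pools together, the share was 7.16% in skeletal muscle-like, 6.09% in sympathetic or chromaffin-type and 5.93% in endothelial-like nuclei, beside 4.97% in neurons. After thinning, 5.78% of satellite glia-like nuclei (median 2472 UMIs) and 2.25% of myelinating Schwann-like nuclei (median 1524.5 UMIs) had a Chrna3 UMI, against 6.02% of neurons.

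The 378 sympathetic or chromaffin-type nuclei held Chrm2 at 143 CPM (14.8% of Snap25 UMIs) and Chrna7 at 90.5 CPM (9.33%), pools together. Of these nuclei 360 were cluster n19, with Ddc at 342 CPM, Th at 121 CPM and Gata3 at 77.9 CPM. Npy stood at 6.36 CPM there, Hand2 at 0.80 CPM and Pnmt at 0 CPM. Dbh stood at 50.9 CPM in n19 against 497 CPM in the 18 nuclei of cluster o15. Cluster n19 also carried 4 satellite glia markers, so the class name is tentative. Over the 10 pools with enough of these nuclei Chrm2 stood at 130 ± 83.6 CPM and Chrna7 at 88.0 ± 68.1 CPM, which differed from the levels of neurons by less than these SDs.

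Chrm3 made up a larger share of Snap25 UMIs in myelinating Schwann-like and mural-like nuclei than in neurons in most pools. It stood at 45.0 ± 30.8 CPM in mural-like nuclei, 35.6 ± 20.9 CPM in myelinating Schwann-like nuclei and 34.9 ± 8.94 CPM in satellite glia-like nuclei, beside 40.4 ± 19.6 CPM in neurons (n = 12). Its share of Snap25 UMIs was 2.52 ± 1.42% in neurons, 2.98 ± 0.936% in satellite glia-like nuclei, 9.32 ± 6.06% in myelinating Schwann-like nuclei and 13.4 ± 9.17% in mural-like nuclei. It was above the value of neurons of the same pool in 10 of 12 pools for Schwann-like and in 11 of 12 pools for mural-like nuclei. Such counts were not particular to Chrm3, since Chrnb2 was above neurons in 10 of 12 pools in satellite glia-like and 8 of 12 in mural-like nuclei, and Chrna3 in 8 of 12 in Schwann-like nuclei. With pools together, the Chrm3 share was lower in skeletal muscle-like (1.24%) and sympathetic or chromaffin-type nuclei (1.502%) than in neurons (2.40%). Thinned shares of nuclei with a Chrm3 UMI were 2.85% of neurons, 3.04% of myelinating Schwann-like, 3.10% of satellite glia-like and 2.88% of mural-like nuclei. It was the 1 member whose thinned share was not larger in neurons than in myelinating Schwann-like nuclei. The satellite glia-like clusters differed in Chrm3, pools together. It stood at 47.1, 54.7 and 49.1 CPM in o1, o4 and o6, where Snap25 had 799, 1166 and 1031 CPM. In o2, o3 and o9 it stood at 19.1, 15.8 and 29.6 CPM, where Snap25 had 1290, 1378 and 1591 CPM. The mural-like class was 1 cluster of 667 nuclei, led by Acta2 and Myh11 but also by Adgrf5, Adgrl4, Slco1a4 and Abcg2. At a clustering resolution of 2, these last genes led an endothelial-like cluster of 413 nuclei, and the mural-like class held 294. Values of the mural-like class may therefore mix mural and endothelial nuclei.

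**Figure D2:**
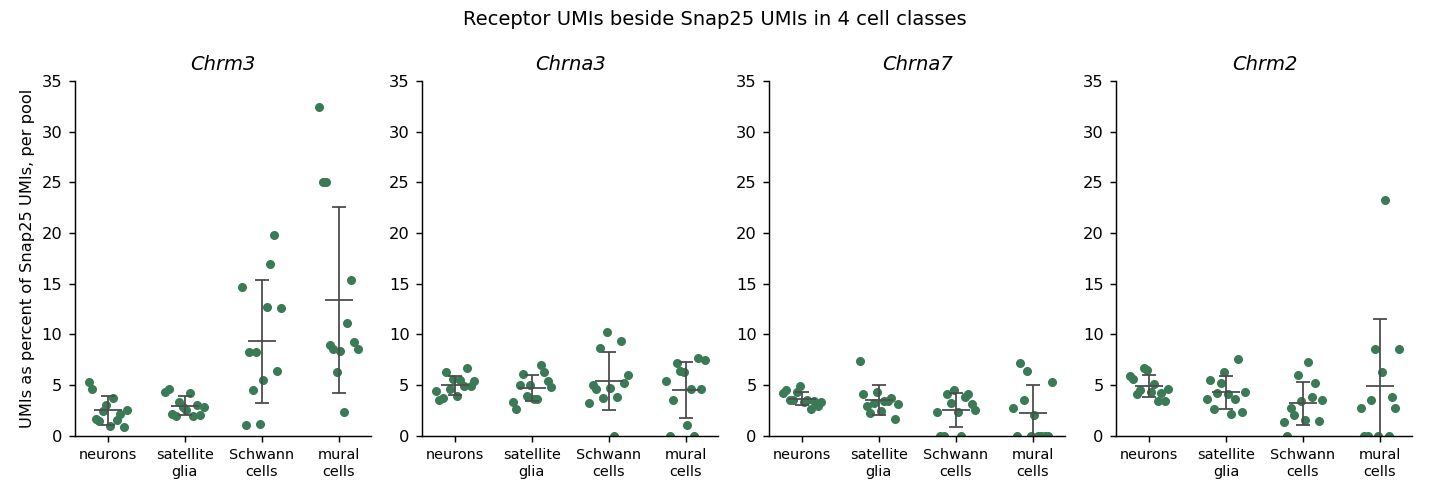
UMIs of Chrm3, Chrna3, Chrna7 and Chrm2 as a percent of Snap25 UMIs in 4 cell classes; each point is 1 of 12 pools, bars are mean ± SD. For Chrm3 the mean is 2.52% in neurons and 13.4% in mural-like nuclei, while for Chrna3 all 4 means lie between 4.52% and 5.37%. The mural-like class was led by genes of both mural and endothelial nuclei.

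Subunits of the ganglionic receptor were found in the same nuclei more often than their separate shares give. Within subclusters the same held for some pairs across receptor classes, which are given below. In neurons thinned to 1000 UMIs, 186 nuclei had UMIs of both Chrna3 and Chrnb4, where the product of the shares over all neurons gives 51.1. The ratio was 3.64, and 3.46 ± 0.861 over pools, above 1 in 12 of 12 pools. When shares were taken within each subcluster, 119 nuclei were expected and the ratio was 1.56, above 1 in 11 of 12 pools. By subcluster, it was 1.17 in n5 (95 nuclei against 81.2), 2.29 in n10 (9 against 3.93) and 3.15 in n6 (13 against 4.13). Chrna3 with Chrna5 gave 87 nuclei against 27.8, a ratio of 3.13 over all neurons and 1.39 within subclusters, and Chrna5 with Chrnb4 gave 43 against 16.5, a ratio of 2.61 and 1.47. Chrna6 and Chrnb3 were found together in 18 nuclei against 2.96, a ratio of 6.08 over all neurons and 1.36 within subclusters. Over pools these ratios were 4.67 ± 5.06 (above 1 in 8 of 12 pools) and 1.03 ± 0.964 (7 of 12).

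Across receptor classes, Chrna6 and Chrm3, both high in n10, were found together 3.61 times as often as over all neurons expected and 1.20 times within subclusters. Chrm2 with Chrna3 had a ratio of 0.768 over all neurons and 0.994 within subclusters. Within subclusters, Chrna3 with Chrm3 had a ratio of 1.65 (above 1 in 10 of 12 pools) and Chrnb4 with Chrm3 of 1.63 (9 of 12). Chrna6 with Chrm2 had a within-subcluster ratio of 0.591 (above 1 in 3 of 12 pools). An excess within subclusters was therefore not particular to the subunits of the ganglionic receptor. Subclusters can hold finer types, and 30 pairs were compared without a test.

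**Figure D3:**
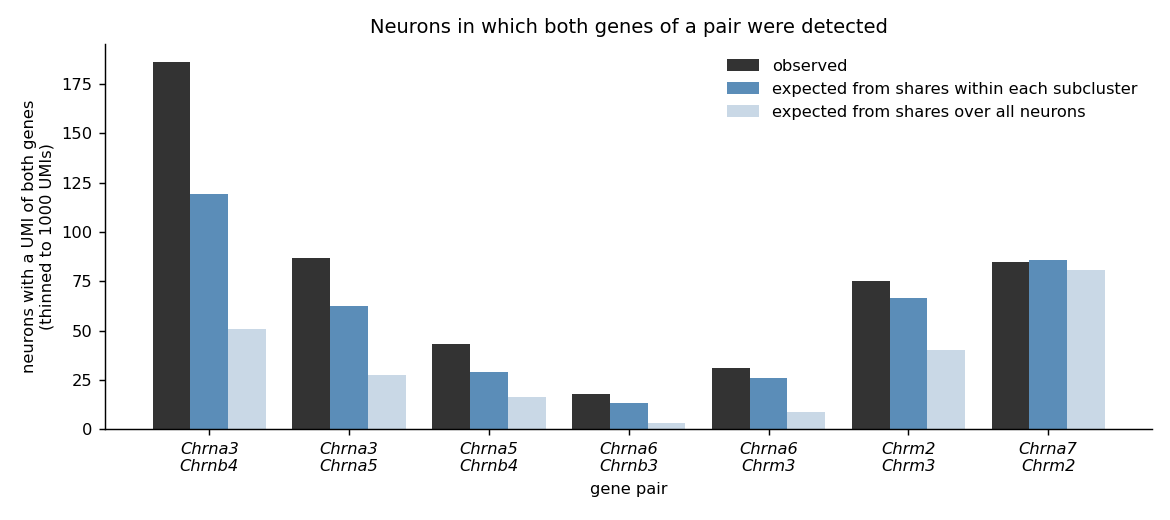
Number of neurons, thinned to 1000 UMIs, with UMIs of both genes of 7 pairs (black), beside the number expected from the genes' shares within each subcluster (blue) and over all neurons (pale). For Chrna3 with Chrnb4 the bars stand at 186, 119 and 51.1 neurons.

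Each member was compared with 10631 genes of at least 5 CPM in neurons over the 23 subclusters, by Pearson r of log2(CPM + 1), as a description in which all points share the same libraries. The genes most like Chrna3 were Nsg1 (r = 0.84), Chrnb4 (0.81) and Card6 (0.73). Those most like Chrnb4 were Chrna3 (0.81), Cpne5 (0.80) and Nnat (0.80), so these partner subunits appeared in each other's list. The genes nearest to Chrna6 were Myo1e (0.82), Mdfic2 (0.77) and Chrnb3 (0.76), and those nearest to Chrm3 were Sytl3 (0.88), Adamts16 (0.86) and St6galnac5 (0.84). Chrna5 was most like Cpm (0.73), Rrbp1 (0.70) and Zfp239 (0.69), Chrm2 most like Opcml (0.69), Kitlg (0.66) and Fstl5 (0.64). Chrna7 was most like Hirip3 (0.86), Elac1 (0.84) and Col15a1 (0.84), and Chrnb2 most like AABR07039336.2 (0.91), Sf3a1 (0.91) and Kif5b (0.90).

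The study's design sets right against left ganglia, and the neurons of each pool were compared by side in 1 fit of all genes with labelled sex as a covariate (edgeR's quasi-likelihood test, Benjamini-Hochberg adjustment over 13871 genes). None of the 8 members passed an adjusted p of 0.05, where 0.151% of all genes did. At an unadjusted p under 0.05, 3 of 8 members passed, all higher on the right, against 7.14% of all genes. Chrna3 in neurons of left pools was 52.6 CPM at the lowest, 67.7 at the median and 96.3 at the highest, and in right pools 71.3, 91.3 and 111 CPM. The groups overlapped, and the log2 fold change (right over left) was 0.36 ± 0.10 (SE), with an adjusted p of 0.344 by edgeR. Chrnb4 had a log2 fold change of 0.17 ± 0.065 (adjusted p = 0.606) and Chrna5 of 0.22 ± 0.094 (adjusted p = 0.655). Without the 2 pools that went against their sex label, Chrna3 had a log2 fold change of 0.30 (edgeR adjusted p = 0.882), while Chrnb4 (0.13) and Chrna5 (0.15) had unadjusted p of 0.122 and 0.194. Without the filter on low counts 0.271% of genes passed, with Chrna3 as the 1 member (adjusted p = 0.032, edgeR). With the filter, the other 5 members had values from -0.40 (Chrm3) to 0.05 (Chrm2), with adjusted p of at least 0.847 in that edgeR fit. In bulk sums of neurons, more neurons of a type and more RNA per neuron cannot be told apart without the subclusters.

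The share of n5 among neurons differed by side in the same direction as Chrna3. It was 2.81%, 4.60%, 4.77%, 5.59%, 4.33% and 5.71% in the left pools and 8.24%, 7.22%, 7.23%, 9.80%, 8.99% and 7.49% in the right pools, with means of 4.63 ± 1.05% and 8.16 ± 1.06% (n = 6 each). No left pool reached the lowest right pool. Of the 23 subclusters this was the only one, 4.35%, whose share did not overlap between sides, and the share was not tested. The share is a fraction of captured nuclei, so it moves also with how many other neurons were captured.

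Within n5, Chrna3 was not higher on the right. The left pools ranged from 529 to 847 CPM with a median of 651 CPM (mean 669 ± 109), and the right pools from 511 to 658 CPM with a median of 583 CPM (mean 587 ± 66.3). The log2 fold change was -0.21 ± 0.091 with an adjusted p of 0.965 in an edgeR fit of n5 alone, where 0.0141% of 7106 genes passed. Chrnb4 in n5 had a log2 fold change of -0.28 ± 0.11 (adjusted p = 0.965, edgeR) and Chrna5 of 0.02 ± 0.13 (adjusted p = 0.999). Both Chrna3 and Chrnb4 had an unadjusted p under 0.05 there, in the direction of lower on the right, against 4.66% of all genes.

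Outside n5, the other neurons of left pools held 44.7 ± 9.52 CPM of Chrna3 and those of right pools 50.2 ± 9.83 CPM. When n5 was left out of the fit of all neurons, a step added after the values had been seen, the log2 fold change of Chrna3 was 0.15 ± 0.13 (adjusted p = 0.896, edgeR), that of Chrnb4 0.066 ± 0.073 and that of Chrna5 -0.0031 ± 0.093. No gene of the whole table then passed the adjusted threshold by edgeR, and 849 had an unadjusted p under 0.05.

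**Figure D4:**
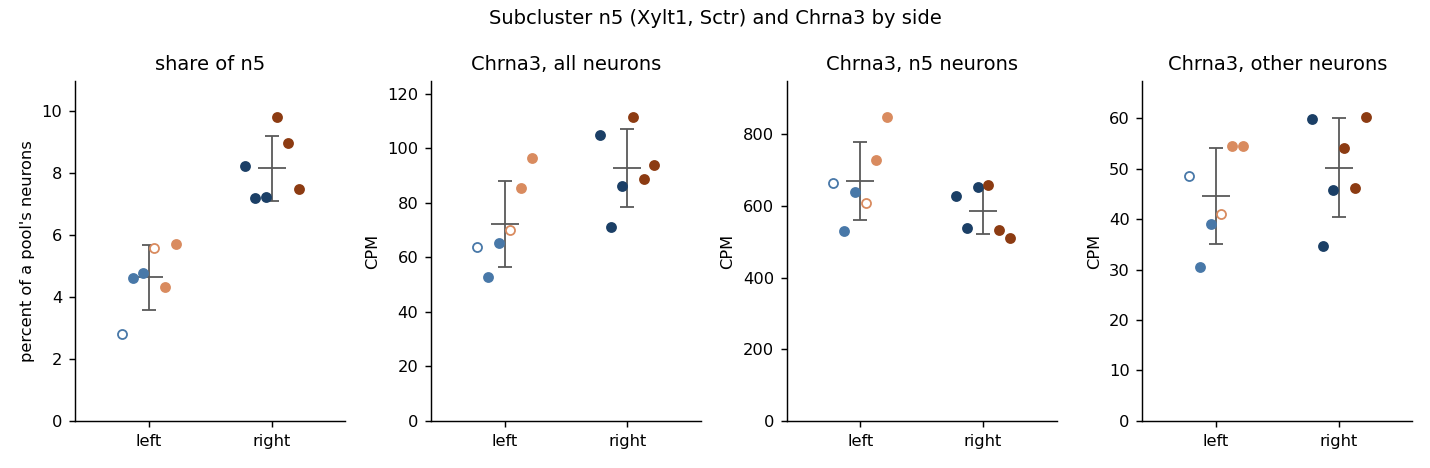
Left and right pools (points; blue male-labelled, orange female-labelled, open the 2 pools that went against their sex label; bars mean ± SD, n = 6) for the share of n5 among neurons in percent and for Chrna3 CPM in all neurons, in n5 and in the other neurons. The n5 shares do not overlap between sides, whereas the Chrna3 levels overlap in all 3 panels.

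By labelled sex, no member passed an adjusted p of 0.05 in neurons, where 0% of all genes did (0 of 13871 by edgeR's quasi-likelihood test, with 2574 genes at an unadjusted p under 0.05). 5 of the 8 members had an unadjusted p under 0.05, against 18.6% of all genes. Chrna7 in male-labelled pools was 58.3 CPM at the lowest, 64.2 at the median and 75.5 at the highest, and in female-labelled pools 50.6, 55.6 and 59.0 CPM. The groups met only at their edges, and the log2 fold change (female over male label) was -0.26 ± 0.067 with an adjusted p of 0.0891 by edgeR. Chrm2 had a negative value too (-0.28 ± 0.090, adjusted p = 0.134), and Chrnb4 (0.20 ± 0.066, adjusted p = 0.134), Chrna3 (0.29 ± 0.10, adjusted p = 0.165) and Chrna5 (0.20 ± 0.094, adjusted p = 0.259) had positive values. Without the 2 pools that went against their label, Chrna7 had a log2 fold change of -0.29 ± 0.075 (adjusted p = 0.127, edgeR) and Chrm2 of -0.29 ± 0.10 (adjusted p = 0.202). Chrna3 then had 0.32 (edgeR adjusted p = 0.214), Chrnb4 0.19 (0.251) and Chrna5 0.17 (0.445, with an unadjusted p of 0.120).

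These values by label depended on the setting. Without male-labelled right pool 1, 3.91% of all genes passed, and with them Chrna7 (adjusted p = 0.0224), Chrna3 and Chrm2 (both 0.0472, edgeR). Under DESeq2 2.93% of genes passed, with Chrna7 as the 1 member (adjusted p = 0.0295). Without the filter on low counts 2.53% passed, with the same 3 members (edgeR adjusted p from 0.0352 to 0.0445). No member passed the interaction of side and sex, where 0% of all genes did and 4.2% had an unadjusted p under 0.05.

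**Figure D5:**
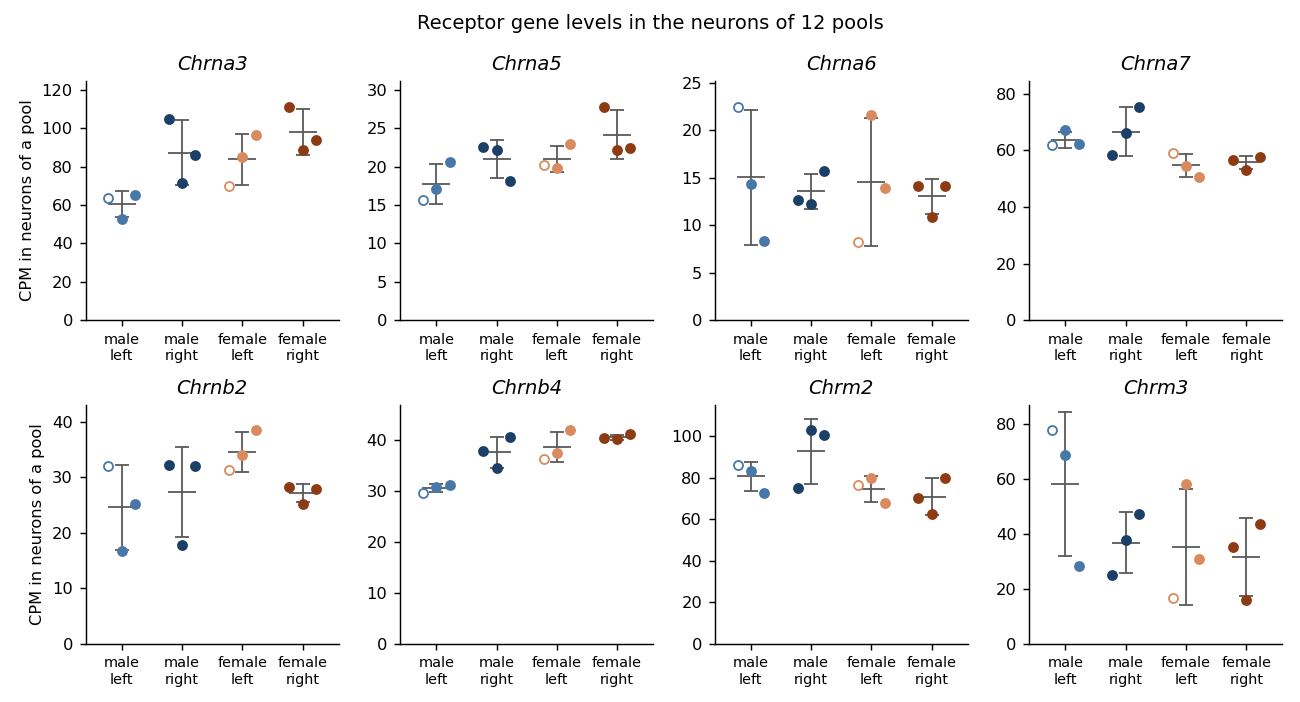
CPM of each receptor gene in the neurons of the 12 pools (points; open, the 2 pools that went against their sex label), with mean ± SD of the 3 pools per group. Chrna3 in left pools of the male label lies between 52.6 and 65.5 CPM, and Chrm3 spreads from 15.9 to 77.6 CPM over all pools.

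In satellite glia-like and myelinating Schwann-like nuclei no member tested passed either comparison. In satellite glia-like nuclei all 8 members were tested and 0% of 10853 genes passed by side or by labelled sex (edgeR). At an unadjusted p under 0.05, 0 of 8 members passed by side there, against 4.72% of all genes, and 2 of 8 by labelled sex, against 7.33%. In myelinating Schwann-like nuclei Chrm3 was the 1 member that passed the filter on low counts, with a log2 fold change of -0.16 ± 0.30 by side (adjusted p = 0.954, edgeR; 0.074% of genes passed) and 0.34 ± 0.30 by labelled sex (adjusted p = 0.988; 0.0296% passed). No member passed that filter in mural-like nuclei, and endothelial-like, skeletal muscle-like and sympathetic or chromaffin-type nuclei were too few in some pools and were not tested.

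The other genes of cholinergic signalling were taken from 5 lists, and none of their tested genes passed by side or by labelled sex in neurons. Of all 13871 genes tested, 0.151% passed by side and 0% by labelled sex (adjusted p under 0.05, edgeR), so few or no list genes could pass. Of 10 other nicotinic subunits 9 were in the gene list and 3 were tested, and Chrnb3 was the highest at 10.8 ± 6.07 CPM in neurons (n = 12). Of the other muscarinic receptors 1 of 3 was tested, Chrm4, at 10.2 ± 2.57 CPM. Of 8 listed genes of acetylcholine synthesis, transport and breakdown, 7 were in the gene list and all 7 were tested, while Slc18a3 was not found by symbol. They were led by the choline transporter-like Slc44a1 at 306 ± 11.6 CPM, and Chat, the enzyme that makes acetylcholine, stood at 7.87 ± 0.868 CPM. Among 10 receptor assembly and accessory genes Nptn was the highest, at 237 ± 11.5 CPM. Among the 12 muscarinic signalling genes tested it was Kcnq3, a subunit of the potassium channel that muscarinic receptors close, at 1177 ± 177 CPM.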

How the data were processed

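Nuclei of 12 pools were sequenced in 8 sublibraries, and the authors deposited 1 matrix of raw UMI counts, a gene list and a nucleus table that names each nucleus's pool, from which sex and side were read. Per the submitters' processing notes R 4.3.2, Seurat 4.1.3 and the genome build mRatBN7.2 were used. Sources used here give no aligner, annotation, barcode filter or use of strand. The deposited counts are not normalized; the matrix sums equal the transcript count of the nucleus table for all 36741 nuclei.

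A nucleus needed 300 genes or more and no more than 5% of UMIs from mitochondrial genes. Scores marked 2 nuclei as doublets, which were removed, so the caller did not work here and doublets may remain. A first Leiden clustering at resolution 1 (3000 variable genes without cholinergic receptor genes, 30 principal components, scanpy 1.11.5) set neuron-like nuclei apart from the others. Each of these parts was then clustered again with the same resolution and number of components on 2000 variable genes, again without those genes. The first step used log-normalized and scaled counts. The second used Pearson residuals of the counts, both to choose the variable genes and for the components. This second step gave the clusters described here. Classes needed 3 markers at 2 times the level of the remaining nuclei; the fold for neuron markers was lowered to 1.25 after the clusters were seen. Counts were summed per pool and class and tested with edgeR 4.0.16 (TMM, filterByExpr, side and labelled sex as terms, Benjamini-Hochberg adjustment over all genes tested); DESeq2 1.42.0 and limma 3.58.1 served as alternatives. The scripts were tested on simulated data. P-values measure the spread between pools, which share rats across sides. The 8 members and the gene lists were chosen with earlier results of these data known. Named genes are all members, the highest gene of each list and any list gene past the threshold, the 3 genes most like each member, and for each member its 3 highest subclusters and its lowest; the levels of Chat, Chrnb3 in subclusters and n12 and n13 were added after the values were seen. Intervals and limits cover counting error only. Upstream sequences come from RefSeq (GRCr8) and not from the build of the counts.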

Additional observations from a re-analysis of the deposited data

Results flagged for a closer look

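In 3 of 154 groups of 4 to 6 pools, the highest pool stood apart from the others by Dixon's test at the 95% level, which chance does in about 1 in 20 groups. Chrna6 in n10 was 141 CPM in male-labelled right pool 1, where the nearest of the 5 male-labelled pools had 90.1 CPM. The share of neurons in n15, a subcluster high in Chrna7 and Chrm2, was 3.92% in the same pool, where the nearest male-labelled pool had 3.12%. The share of neurons in n27, high in Chrna6 and Chrm3, was 0.723% in male-labelled left pool 1, one of the pools that went against its sex label, where the nearest had 0.233%.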

How the results depend on the processing

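The number of genes called in neurons by side (21) was 77 with DESeq2, 62 without the filter on low counts, 12 with receptor genes kept in the clustering, 3 with the pool number as a replicate block, 1 without the 2 pools that went against their sex label, 0 with n5 left out (chosen after seeing the data) and 1 to 17 with any 1 pool left out. By labelled sex (0) it was 407 with DESeq2, 578 without the filter, 16 with at least 50 UMIs in every pool, 34 without those 2 pools and 0 to 557 with 1 pool left out, and for the interaction (0) it was 2 without the filter. Receptor genes called were 1 by side without the filter (Chrna3, adjusted p = 0.032), 1 by labelled sex with DESeq2, 3 without the filter and 0 to 3 with 1 pool left out, and none in the non-neuronal classes tested. In n5 the count by side (1) was 0 to 1 with 1 pool left out. The cause of these changes was not tested. Fold changes near 0 changed sign: Chrna5 by side was -0.0031 with n5 left out, Chrna7 by side ranged from -0.014 to 0.077 and Chrna6 by side from -0.33 to 0.026 with 1 pool left out. Chrna6 by labelled sex was 0.18 without both doubted pools and ranged from -0.28 to 0.072 with 1 pool left out (0.012 without female-labelled left pool 1), and Chrna5 in n5 by side from -0.031 to 0.064. The count of members at least 5 times above their median subcluster stayed at 7 in every setting run, and the count with larger shares in neurons than in Schwann-like nuclei was 7 to 8 with 1 pool left out. At a clustering resolution of 2 the highest subcluster had 848 CPM of Chrna3, 704 CPM of Chrm3, 191 CPM of Chrnb4 and 114 CPM of Chrna5, and at 0.5 the highest of Chrna7 was 228 CPM. All 16 shares of neurons with a UMI moved with depth, such as Chrna3, as a mean over pools, from 6.05% at 1000 UMIs to 10.5% at 2000. Thinning to 2000 UMIs also left out shallower neurons, with 17302 kept against 23691 at 1000. Depth and the set of neurons therefore changed together. For left and right pools of 1 label and number, the correlations of their deviations from the group means ran from -0.065 to 0.389. They were over 0.1 in 1 of 6 pairs, pool 2 of the male label, where each side was best matched by the other. Groups were formed by label, so the 2 pools that went against their label entered these pairs and means. The correlations therefore cannot decide whether the numbers pair the pools. The replicate block called no member by side.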
